A study of Xenopus tropicalis with 8 samples.

Results

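Disperse Yellow 7 (DY7), an azo dye, colours synthetic textiles. Its effect on gene expression during development was measured in whole embryos of the western clawed frog, Xenopus tropicalis, on 8 single-colour Agilent arrays. The 4 control samples had no treatment and the 4 DY7 samples had been exposed to 887 ppm of the dye. The labels give stages 12 to 46 for every sample, and no vehicle, number of embryos or strain. Nothing says that the 4 samples of a group came from separate clutches or tanks, so the spread between them may be partly technical. The 5 genes described are epor, slc4a1, slc25a37, fech and ca1, all known from red blood cells. Every probe whose transcript accession belongs to one of them in RefSeq was taken. This gave 5 probes, 1 for each gene, of 32899 distinct probes on the array, and 7 of 43803 spots. The 5 genes were chosen by their measured differences in level between the DY7 and control arrays, so those differences are given as a description, without p-values, and no call made on them in the fit across all probes counts as evidence.

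Red cells carry oxygen on hemoglobin, a protein that holds it through heme, a ring with iron at its centre. The hormone erythropoietin keeps red cell precursors alive through its receptor, the product of epor. Precursors bring iron into their mitochondria through mitoferrin, made from slc25a37, and ferrochelatase, made from fech, inserts it into protoporphyrin as the last step of heme synthesis. The mature cell carries carbon dioxide with the help of carbonic anhydrases, such as the product of ca1, and of the anion exchanger band 3, the product of slc4a1. Amphibian red cells keep their nuclei.

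Few other genes that define red cells could be read. Of 23 red cell markers listed, 3 were matched by name on the array, and 1 of these, sptb, the beta spectrin of the membrane skeleton, was measured. Its level relative to the 75th percentile of the array, on a log2 scale, was 0.54 ± 0.16 in controls and 0.59 ± 0.17 in DY7 (SD, n = 4 each). The other 2 were epb42, a membrane skeleton protein, and rhag, an ammonia channel of the red cell. Both lay above background on 0 of 8 arrays, with processed signals of at most 8.86 and 5.37. The same held for hemgn, a nuclear protein of blood precursors, at 6.82 or less. The globin gene gby was well above background on 1 of 8 arrays. Hence the amount of red cell RNA in these embryos was not measured by its usual markers, and slc4a1 is known from acid-secreting kidney cells as well. In whole embryos, fewer cells of a type and less RNA per cell cannot be told apart.

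Arrays differed in brightness. At the 75th percentile of all probes the signal lay between 162 and 327 in controls and between 126 and 202 in DY7. Levels below are log2 processed signal minus that percentile. Between 64.0% and 75.9% of probes were well above background on 7 arrays, and 51.6% on control 2. Each slide held 4 arrays, control and DY7 replicates 1 and 2 on slide 1 and replicates 3 and 4 on slide 2. In the fit over all 20289 tested probes, 14.1% differed between DY7 and control at an adjusted p under 0.05 (limma, Benjamini-Hochberg), 9.06% higher and 5.07% lower. The DY7 and control arrays did not overlap for 21.6% of probes.

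The receptor gene epor (XM_002939109, a specific probe) was well above background on every array. Its level was 0.22, 0.31, 0.27 and 0.15 on control arrays 1 to 4. On DY7 arrays 1 to 4 it was 0.52, 0.87, 0.74 and 0.47. Every DY7 array thus lay above every control array, and the smallest gap was 0.16. Within DY7, arrays 2 and 3 were the highest. The mean was 0.24 ± 0.07 in controls and 0.65 ± 0.19 in DY7 (SD, n = 4 each), a difference of 0.41 ± 0.11 (SE) or 1.33-fold.

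The band 3 gene slc4a1 (XM_002935535, a specific probe printed on 2 spots) exchanges chloride for bicarbonate across the red cell membrane. On control arrays 1 to 4 its level was 1.62, 1.104, 1.35 and 1.2, and on DY7 arrays 1 to 4 it was 1.86, 1.66, 1.88 and 1.54. The groups overlapped, because control 1 lay above DY7 4. The mean was 1.32 ± 0.22 in controls and 1.73 ± 0.16 in DY7 (SD, n = 4 each), with a difference of 0.41 ± 0.14 (SE). The paired spots of slc4a1 differed by at most 0.14 on the log2 scale on any array, and gave group differences of 0.40 and 0.43.

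The mitoferrin gene slc25a37 (XM_002932551) was the dimmest of the 4 genes that were higher in DY7, and its probe is named as cross-hybridising in the array design. On control arrays 1 to 4 the level was -2.80, -3.64, -2.49 and -2.76, and on DY7 arrays 1 to 4 it was -2.62, -1.84, -2.09 and -2.22. Control 2 was the lowest of all and the only array on which the probe was not well above background. DY7 1 lay below control 3, so the groups overlapped. The mean was -2.92 ± 0.50 in controls and -2.19 ± 0.33 in DY7 (SD, n = 4 each), a difference of 0.73 ± 0.25 (SE) or 1.66-fold. Without control 2 the difference was 0.49.

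The ferrochelatase gene fech (XM_002934427, a specific probe on 2 spots) read -1.51, -1.67, -1.45 and -1.49 on control arrays 1 to 4. On DY7 arrays 1 to 4 it read -1.32, -0.83, -0.86 and -1.39. All DY7 arrays were above all control arrays, but DY7 4 cleared control 3 by 0.06 only. As for epor and slc25a37, DY7 2 and DY7 3 stood above DY7 1 and DY7 4. The same order held for ca1 and for cd68, a macrophage gene, so it is not particular to epor and fech. The mean of fech was -1.53 ± 0.10 in controls and -1.10 ± 0.30 in DY7 (SD, n = 4 each), a difference of 0.43 ± 0.15 (SE). The paired spots of fech differed by at most 0.25 on an array. They gave group differences of 0.49 and 0.38, and on the second spot alone the groups overlapped.

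The carbonic anhydrase gene ca1 (XM_002939152, a specific probe) moved the other way. On control arrays 1 to 4 its processed signal was 77.6, 40.4, 55.4 and 74.2. On DY7 arrays 1 to 4 it was 4.35, 9.35, 19.9 and 12.8. All DY7 arrays lay below all control arrays. The probe was well above background on all 4 control arrays and on DY7 3 and DY7 4, but not on DY7 1 or DY7 2. The lowest signal of any spot called well above background was 10.6 on DY7 1 and 10.1 on DY7 2. On the log2 scale relative to the 75th percentile, the level was -1.95 ± 0.21 in controls and -4.05 ± 0.88 in DY7 (SD, n = 4 each), a difference of -2.10 ± 0.37 (SE), or 4.28-fold lower in DY7. With every signal raised at least to the lowest one well above background on its array, the difference was -1.75, or 3.36-fold.

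**Figure D1:**
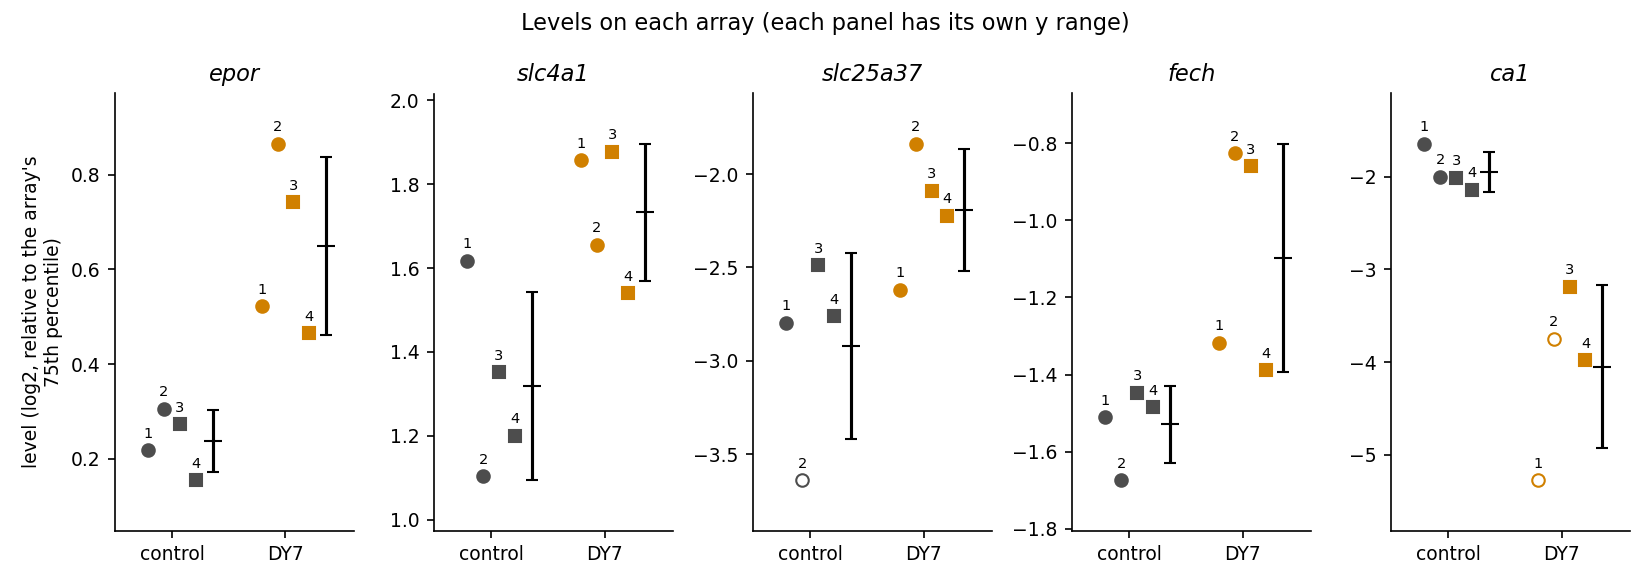
Level of each gene on every array, in log2 units relative to the 75th percentile of the array. Circles are slide 1 and squares slide 2, the number is the replicate, open symbols are not well above background, and bars give the mean and SD of 4 arrays. The groups do not overlap for epor, fech and ca1, and they do for slc4a1 and slc25a37.

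Over the 5 genes, 2 were called in the fit across all probes, epor higher and ca1 lower, where 14.1% of all tested probes were called. The groups did not overlap for 3 of the 5, where this held for 21.6% of all tested probes. The labels do not say that the replicate numbers pair the samples. With the replicate number as a block slc4a1 was called higher as well. With the slide as a block epor was not called, and without control 1, control 3, control 4, DY7 1, DY7 2 or DY7 3 it was not called either. Without DY7 4, fech was called. Nothing is read from these counts or from any of these calls, since the same contrast chose the genes.

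The differences of epor, slc4a1 and fech were close in size, at 0.41, 0.41 and 0.43. A ratio of 2 genes on the same array does not depend on scaling. The log2 ratio of epor to slc4a1 differed between DY7 and control by -0.00, that of epor to fech by -0.02 and that of slc4a1 to fech by -0.02. The groups overlapped in each of these, and the SD within a group ran from 0.12 to 0.29. The ratio of slc25a37 to fech was higher in DY7 by 0.30, with SDs of 0.40 in controls and 0.21 in DY7. The ratio to ca1 was higher in DY7 by 2.51 for epor, 2.51 for slc4a1, 2.825 for slc25a37 and 2.53 for fech, and the groups lay apart in each. The SDs (n = 4) ran from 0.64 to 0.92 in DY7 and from 0.12 to 0.53 in controls. These ratios are limited by ca1, which was not well above background on DY7 1 or DY7 2.

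The direction of 3 of the 5 depended on the scaling between arrays. Without scaling, the mean processed signal of epor was 279.1 in controls and 263.1 in DY7, that of slc4a1 603.7 and 564.6, and that of fech 83.7 and 78.8. The log2 differences were then -0.06, -0.06 and -0.04, while that of slc25a37 was 0.26 and that of ca1 -2.57. With scaling to the median, epor stood at 0.29, slc4a1 at 0.30, fech at 0.315, slc25a37 at 0.61 and ca1 at -2.21. The groups then overlapped for epor, slc4a1 and fech, and without scaling for all but ca1. The median of all tested probes was -0.42 without scaling, 0.06 with the 75th percentile and -0.06 with scaling to the median. Relative to that median of all tested probes, epor stood at 0.35, slc4a1 at 0.36, fech at 0.37, slc25a37 at 0.67 and ca1 at -2.15. These offsets are the same under all 3 by construction, since each takes only a constant off an array, so their sameness shows nothing about the genes. Quantile normalization gave 0.42 for epor, 0.39 for slc4a1, 0.58 for slc25a37, 0.37 for fech and -2.21 for ca1.

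The authors' deposited log2 values gave differences of 0.45 for epor, 0.45 for slc4a1, 0.60 for slc25a37, 0.39 for fech and -2.26 for ca1. A background correction by normexp models each signal as a sum of background and true brightness. It shrank the differences other than that of slc4a1, which stood at 0.44. With normexp and with extreme local backgrounds replaced, epor stood at 0.25, slc4a1 at 0.31, slc25a37 at 0.37, fech at 0.32 and ca1 at -0.49. The groups then overlapped for epor, slc4a1 and ca1. With normexp and unrepaired backgrounds they overlapped for epor, slc4a1, slc25a37 and fech, and not for ca1. That correction adds an offset of 50, which is close to the control signals of ca1 themselves, and the part of the offset was not tested.

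**Figure D2:**
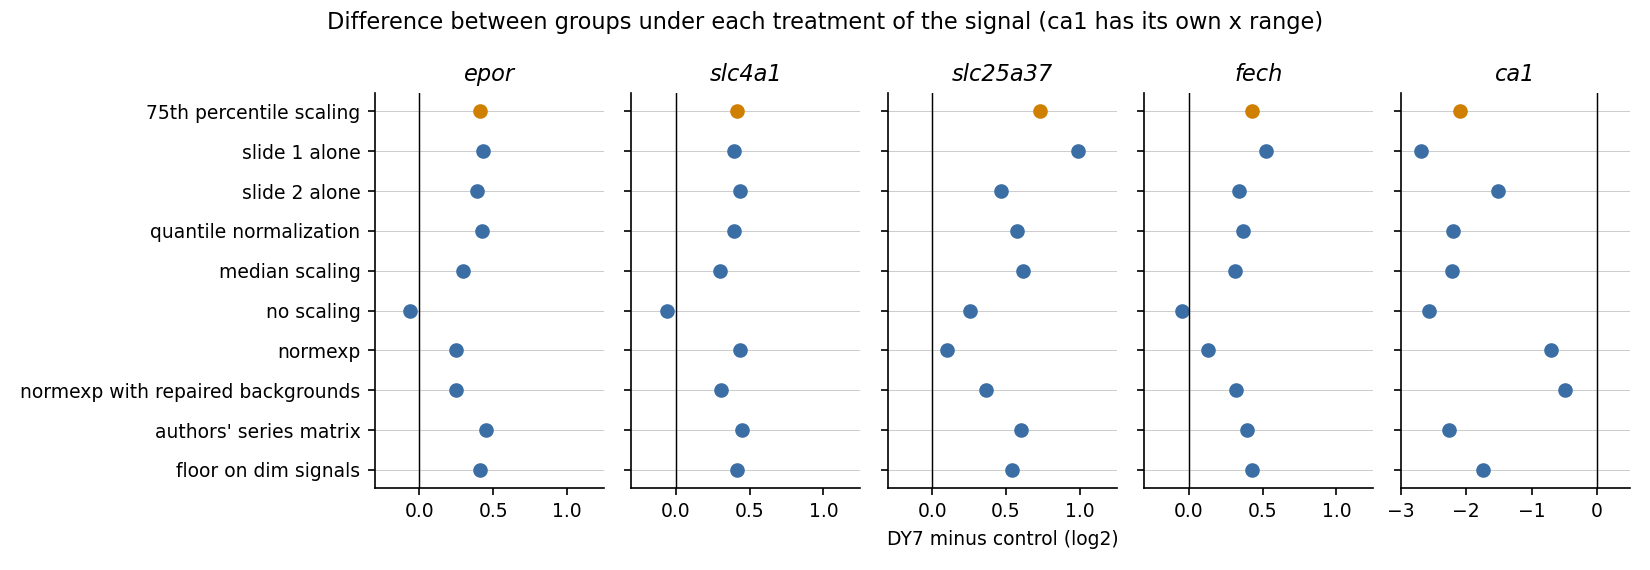
Difference between the means of DY7 and control arrays (log2, x axis) under each way of treating the signal (rows), for each gene. Orange marks scaling to the 75th percentile. Without scaling, epor, slc4a1 and fech stand at -0.06, -0.06 and -0.04, and ca1 is below 0 in every row.

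After the scaling between arrays used for the levels above, each gene kept its direction within both slides and in every pair of samples with the same replicate number. Nothing is read from this sameness, since the same contrast chose the genes. For epor the difference was 0.43 within slide 1 and 0.39 within slide 2, and it ran from 0.30 to 0.56 over the 4 pairs. For slc4a1 it was 0.40 and 0.43 by slide, and 0.24 to 0.55 over the pairs. The gene fech gave 0.52 and 0.34 by slide, with pairs from 0.10 to 0.85. For slc25a37 the slides gave 0.99 and 0.47, and the pair of replicate 2, which holds the dim control 2, gave 1.80 against 0.18 to 0.54 for the other pairs. For ca1 the slides gave -2.69 and -1.51, and the pair of replicate 1 gave -3.63 against -1.84 to -1.17 for the others. Both DY7 arrays of slide 1 were not well above background for ca1. With their signals raised to the lowest one well above background, slide 1 gave -1.99 and the pair of replicate 1 gave -2.35. DY7 1 was the dimmest array for ca1, and without it the difference was -1.69. Without scaling between arrays, processed signals of epor, slc4a1, slc25a37 and fech were lower in DY7 in the pairs of replicates 1 and 4. They were higher in DY7 in the pairs of replicates 2 and 3, while ca1 was lower in every pair. For epor the signals were 241.7 in DY7 1 and 282.6 in control 1, and 228.9 in DY7 2 and 200.2 in control 2.

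**Figure D3:**
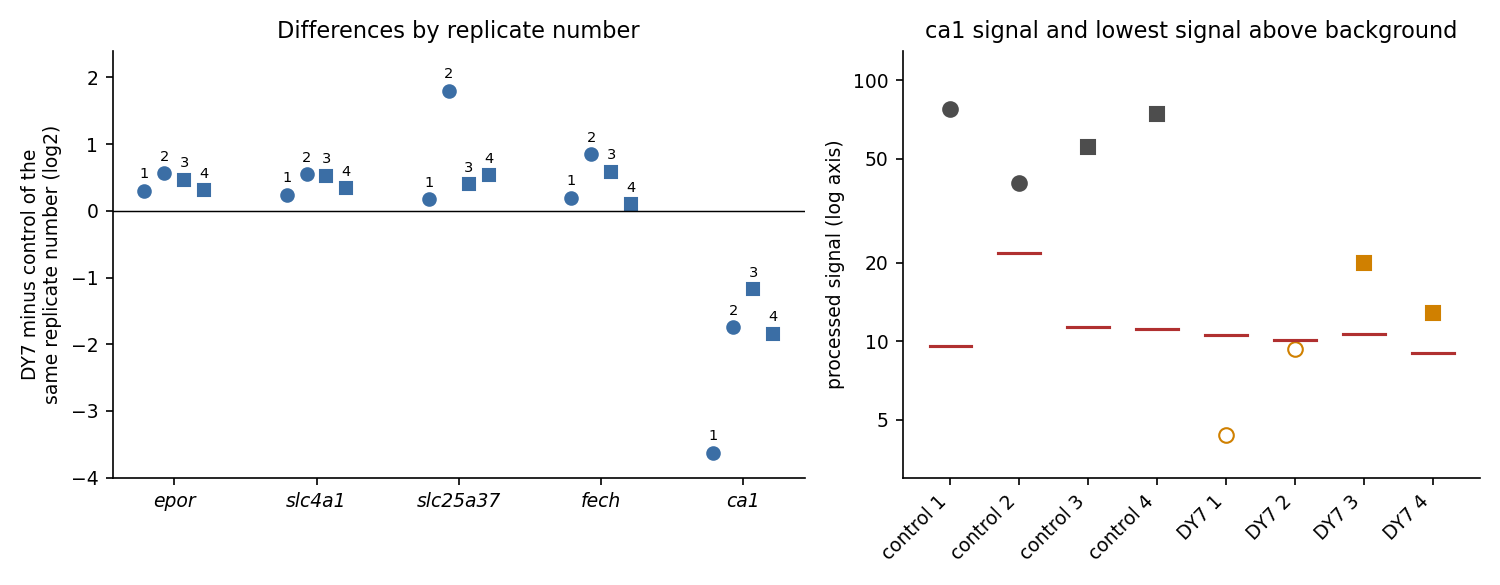
Left, difference between the DY7 and control array of the same replicate number (log2), with circles for slide 1 and squares for slide 2. Right, processed signal of ca1 on each array (log axis, filled where well above background), with red bars at the lowest signal well above background on that array. Both open symbols, DY7 1 and DY7 2, lie under their bars.

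Other genes of the red cell pathways were described from 12 lists of 374 symbols, of which 84 were on the array by name and 58 measured. In DY7, 5 of the 58 rose and 3 fell, or 13.8%, where 13.5% of the 2983 measured genes with a symbol were called, 8.58% higher and 4.96% lower. Their median difference was -0.01, against 0.07 for all genes with a symbol. Of the 5 that rose, pkm, bach1, bnip1 and atp7b were not well above background on control 2 and entered the fit through the DY7 arrays. With probes above background on all 8 arrays 1 gene was called higher and 3 lower, and with a floor on dim signals 2 were called higher and 4 lower. With the replicate number as a block 10 rose and 5 fell, where calls over all 20289 tested probes went from 2867 to 5124. Without control 1 or control 4 there were 3 calls, and without DY7 2 or DY7 3 there were 4. Without scaling slc39a8 and cbfa2t3 alone kept their calls, and without a filter on dim probes fxn alone did. With the repaired normexp correction there were 0 calls by limma, though 22 genes had an unadjusted p under 0.05. In limma's fit with the 75th percentile, 16 of the 58 did. Of the lists below with 0 calls, 2 genes of the SLC4 and SLC25 carriers, 1 of the membrane list and 1 of the signalling list had an unadjusted p under 0.05, and none in the lists of heme synthesis, heme breakdown, carbonic anhydrases and red cell metabolism.

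None of the 3 other measured genes of heme synthesis was called. They were ppox, protoporphyrinogen oxidase, which makes the substrate of ferrochelatase, at -0.20 ± 0.15 (SE), cpox, the enzyme before it, at 0.05 ± 0.10, and clpx at -0.06 ± 0.10, a mitochondrial unfoldase. The probes of cpox and clpx are cross-hybridising. Of 5 genes of heme breakdown and export 0 were called at the adjusted threshold, and their differences ran from -0.20 for the exporter abcg2 to -0.04 for hrg. Heme oxygenase, hmox1, which opens the heme ring, stood at -0.16 ± 0.10. The median of the heme synthesis list was -0.06 and that of the breakdown list -0.11.

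Iron genes were called in both directions, 2 higher and 1 lower of 12. Frataxin, fxn, which helps assemble iron-sulfur clusters in mitochondria, rose from 0.44 ± 0.07 to 0.99 ± 0.08 (SD, n = 4 each), a difference of 0.55 ± 0.09 (SE, limma adjusted p = 0.00825). The metal importer gene slc39a8 fell by 0.77 ± 0.15 (adjusted p = 0.0146 by limma), from -0.64 ± 0.27 to -1.42 ± 0.18. The DY7 and control arrays did not overlap for fxn or slc39a8. Without scaling fxn stood at 0.08 and was not called (limma adjusted p = 0.889), while slc39a8 stood at -1.25 and was called. Neither was called with normexp, with or without repaired backgrounds. The copper transporter gene atp7b rose by 0.90 ± 0.25 (adjusted p = 0.0442 by limma), but was not above background on control 2, and its groups overlapped. With the slide as a block it lost its call, as it did without control 1, control 2, control 4, DY7 2 or DY7 3. The sulfur donor gene nfs1 stood at -0.40 ± 0.19 and passed with the replicate block. The median of the list was -0.15.

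Among 8 transcription factors of blood precursors 1 rose and 1 fell. The corepressor gene cbfa2t3, whose product works with GATA and TAL factors, fell by 0.69 ± 0.15 (SE, limma adjusted p = 0.0188). The call of cbfa2t3 was lost without control 1, control 4 or DY7 3. The gene bach1, a repressor that binds heme, rose by 0.49 ± 0.12 (limma adjusted p = 0.0279) and was not above background on control 2. The call of bach1 was lost with quantile normalization, with scaling to the median and without control 1, control 4, DY7 1 or DY7 2. It was also lost with the authors' deposited values, with normexp and without scaling, where bach1 stood at 0.01. The factor genes gata2 (0.02, cross-hybridising) and zfpm1 (-0.11), a partner of GATA factors, gave no call, nor did gfi1b (0.26 ± 0.12) or myb (0.38 ± 0.17, cross-hybridising). With the replicate block myb was called higher.

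Of 7 genes of erythropoietin and stem cell factor signalling other than epor, 0 were called. They ran from prlr, the prolactin receptor of the same receptor family, at -0.31 ± 0.11 (limma adjusted p = 0.0842, and 0.0335 with the replicate block), to akt1, a survival kinase, at 0.21 ± 0.19. The kinase gene jak1 stood at -0.21 ± 0.13 and kitlg, the stem cell factor gene, at 0.17 ± 0.12 on a cross-hybridising probe. Of 7 red cell membrane and skeleton genes 0 were called, with tmod1, a cap of actin filaments, highest at 0.60 ± 0.22 and epb41 lowest at -0.32 ± 0.19 (cross-hybridising). The gene tmod1 was called with the replicate block, and piezo1, a stretch-activated channel, stood at 0.44 ± 0.20. The probes of tmod1 and epb41 were not well above background on control 2 and entered the fit through the DY7 arrays.

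Relatives of the 5 genes gave little to set beside them. Of 17 other carbonic anhydrases listed, 4 were on the array and 1 was measured, the mitochondrial ca5b, at -0.23 ± 0.11 (limma adjusted p = 0.164). The probe of ca3, another member, was above background on 0 of 8 arrays, with signals of at most 9.52. This gene was picked after its values were seen. Of 6 other measured carriers of the SLC4 and SLC25 families 0 were called. The bicarbonate cotransporter gene slc4a4 (0.43 ± 0.15) and slc4a10 (0.41 ± 0.23) were called with the replicate block, and slc4a11 stood at 0.57 ± 0.22. The remaining carriers were slc25a30 at 0.24 ± 0.15 (cross-hybridising), slc4a8 at 0.10 ± 0.15 and slc25a36 at -0.21 ± 0.17. Neither slc4a10 nor slc4a11 was well above background on control 2, and both entered the fit through the DY7 arrays.

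In the hypoxia list, 1 of 5 rose and 1 fell. The pyruvate kinase gene pkm rose by 0.67 ± 0.12 (limma adjusted p = 0.0117) on a dim cross-hybridising probe not above background on control 2, while a second pkm probe gave 0.61 ± 0.24 and no call. With a floor on dim signals pkm stood at 0.43 (limma adjusted p = 0.149). The gene egln2, a sensor that marks hypoxia factors for destruction, fell by 0.36 ± 0.10 (limma adjusted p = 0.0489), and lost its call without any 1 array other than control 3. In the list for precursor maturation 1 of 3 rose, bnip1 at 0.86 ± 0.21 (limma adjusted p = 0.0291), on a cross-hybridising probe not above background on control 2. Its product is a membrane fusion protein of the endoplasmic reticulum rather than a red cell protein. Its call was lost without control 1, control 4, DY7 2 or DY7 3. Of the list of red cell metabolism only gpx1 was measured, at -0.08 ± 0.11.

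**Figure D4:**
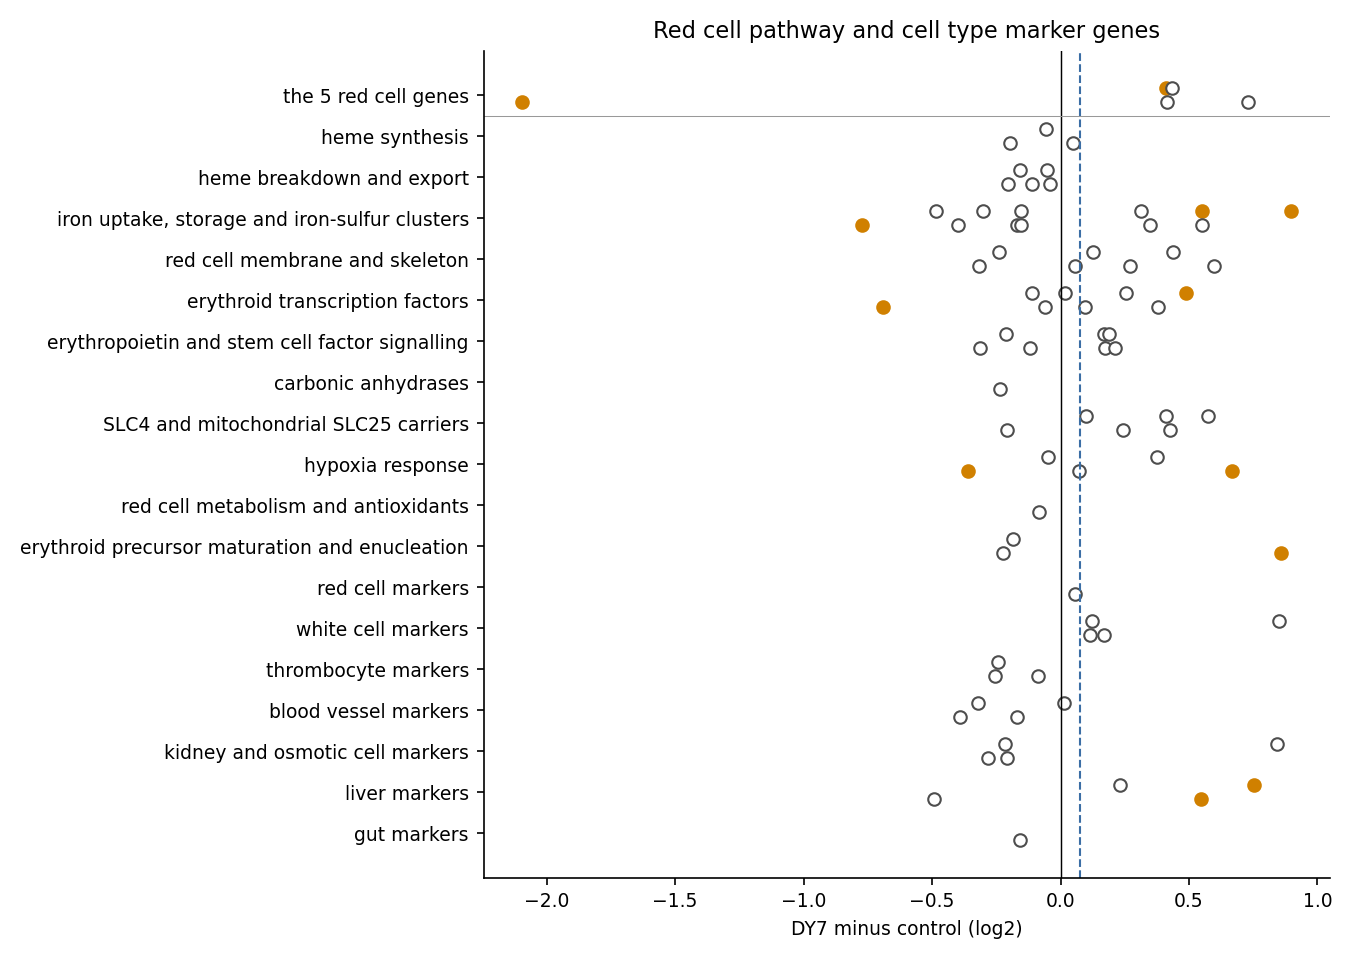
Difference between DY7 and control (log2) of the 5 genes and of every measured gene in the pathway and marker lists, 1 point per gene and shifted slightly up or down to separate points. Filled orange points passed the adjusted p over all probes, and the dashed line is the median of the 2983 genes with a symbol (0.07). Among the 5 genes, the fills of epor and ca1 count as no evidence, since the same contrast chose the genes. Called genes of the pathway lists stand on both sides of 0.

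Markers of red cells and of other cells in the embryo were read beside the 5 genes. Of 116 symbols in 7 lists, 21 were measured, 2 rose and none fell, or 9.52%, where 13.5% of all genes with a symbol were called, 8.58% higher and 4.96% lower. The replicate block gave 4 higher and 2 lower, where it called 5124 of all 20289 tested probes. Both rises came from the 4 measured liver markers: serpina1, a protease inhibitor of plasma (0.75 ± 0.12, limma adjusted p = 0.00773), and apob, the lipoprotein of very low density particles (0.55 ± 0.13, limma adjusted p = 0.0286). The call of apob was lost with scaling to the median and without control 3, control 4, DY7 2, DY7 3 or DY7 4. It was also lost with normexp and without a filter on dim probes. Without scaling neither apob (0.07) nor serpina1 (0.28) was called. The summed level of the liver list ran from 6.28 to 6.77 on controls and from 6.91 to 7.19 on DY7 arrays, and apob is by far its brightest gene. The other liver markers gave no call, alb, the albumin gene, at 0.23 ± 0.16 and fgg, a fibrinogen chain, at -0.49 ± 0.26. The list's part in the values of the 5 genes was not tested.

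Markers of white cells (4 of 26 measured), thrombocytes (3 of 10), blood vessels (4 of 16), kidney and osmotic cells (4 of 12) and gut (1 of 13) gave 0 calls by limma, with an unadjusted p under 0.05 for 2 vessel genes and 2 kidney genes. In the white cell list, csf3r, lyz, mmp8 and cd3e were above background on 0 of 8 arrays, and the summed level ran from 3.13 to 3.97 on controls and from 3.58 to 4.86 on DY7 arrays. The brightest of the 4 was cd68, a macrophage gene, whose difference was 0.85 ± 0.39 and passed with the replicate block. The vessel genes tek (-0.39 ± 0.14) and tie1 (-0.32 ± 0.13), both receptors of endothelial cells, were called lower with that block. The other measured vessel genes, robo4 (-0.17 ± 0.13) and mmrn2 (0.01 ± 0.21), were not. The kidney list, of interest because slc4a1 is used there too, stood between 2.77 and 2.87 on controls and between 2.82 and 3.49 on DY7 arrays. Its genes of acid-secreting cells, foxi1, atp6v1b1 and atp6v0a4, were not matched by name on the array. Expression of slc4a1 in such cells therefore cannot be judged from the list. In it slc12a3, a salt cotransporter of the kidney tubule, stood at 0.84 ± 0.32 and passed with the block. The other 3 were below 0, slc12a1 at -0.28, lrp2 at -0.22 and pax8 at -0.21, and the median of the list was -0.21. The thrombocyte genes itgb3 (-0.24 ± 0.13) and gp1bb (-0.26 ± 0.15) gave no call. With the authors' deposited values (-0.31) and without control 2 (-0.36), itgb3 was called lower.

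The genes with the most similar pattern over the 8 arrays were found for each of the 5 by the root mean square difference between centred log2 levels, among 2983 genes with a symbol. For epor these were rpp38 (0.07), mylk4 (0.08) and caprin2 (0.08), the first and last on cross-hybridising probes. For fech they were coro2a (0.03), fndc3b (0.07) and lama1 (0.07), and for slc4a1 s1pr3 (0.09), pak2 (0.11) and pold1 (0.12, cross-hybridising). The nearest to slc25a37 were bmf (0.12), kif16b (0.13) and cspg4 (0.14), which like it were above background on 3 of 4 control arrays. For ca1 the nearest lay farther off, ucp3 at 0.37, cd36l at 0.51 and arsa.2 at 0.61. Few genes can lie near ca1 by this measure, since only 0.079% of tested probes had a larger difference in either direction. Of the 4 DY7 arrays, ucp3 was well above background on 3 and ca1 on 2. Among the 5 themselves, epor and fech were the closest at 0.12, and ca1 was 1.35 or more from each of the others.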

How the data were processed

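Total RNA of 8 embryo samples was labelled with Cy3 and hybridised to 1-colour Agilent arrays. The deposited scanner files hold intensity on a linear scale, corrected for background and spatial trend by Agilent Feature Extraction, per the file headers (version 10.7.3.1 for slide 1, version 10.7.1.1 for slide 2). The deposited series matrix holds log2 values, and each column correlated with the same array's log2 processed intensity at 0.986 or more over non-control spots. Column medians of that log2 matrix were 5.17, 5.33, 5.22 and 5.18 for control arrays 1 to 4 and 5.25, 5.24, 5.25 and 5.25 for DY7 arrays 1 to 4. How the matrix was scaled is not stated there.

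From these files, 1417 control spots and spots with outlier flags were left out, log2 intensity was averaged over the spots of a probe, and the 75th percentile of each array was subtracted. Probes well above background on all 4 arrays of a group were kept (20321), of which 32 without a value on some array were dropped. Groups were compared with limma 3.58.1 in R 4.3.3, without a block, at an adjusted p under 0.05 over probes. A gene was read by its brightest probe. Names came from RefSeq transcript accessions of assembly UCB_Xtro_10.0, which matched 5891 of 32899 probes, and no coordinates are used. The number of arrays limits the precision. The script was checked on simulated data.

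The 5 genes, 19 lists and tests were chosen with earlier results of these data known. Named from each list were up to 4 called genes by smallest p, or else the 2 with the largest difference, and other list members named were chosen after their values were seen. Deviations from group means of control and DY7 arrays with the same number correlated at 0.31, 0.11, 0.45 and 0.45. Arrays with the same number also shared a slide, and unlike numbers were not compared. These values therefore cannot show that the numbers pair the samples, and the labels state no pairs. The replicate block is given as an alternative only. The normexp alternative used median spot signals, since the files hold no mean spot signal. Probe sequences were not used here.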

Additional observations from a re-analysis of the deposited data

Results flagged for a closer look

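Dixon's test for a single distant value was applied to the 5 red cell genes and 32 named list genes in both groups of 4 arrays. It marked 4 of 74 groups, where chance marks about 1 in 20, and none of them belonged to the 5 red cell genes. The copper transporter gene atp7b stood at -3.03 on control 3, against -3.85 to -3.76 on the other control arrays. The vessel receptor gene tek stood at -1.82 on DY7 2, against -1.46 to -1.39 on the other DY7 arrays. The integrin gene itgb3 stood at -1.98 on control 2, on which 51.6% of probes were well above background, against -1.55 to -1.49 on the other controls. The platelet glycoprotein gene gp1bb stood at -2.13 on DY7 2, against -1.57 to -1.52 on the other DY7 arrays.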

How the results depend on the processing

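The replicate block raised the calls over all probes from 2867 to 5124, over the pathway lists from 8 to 15 and over the marker lists from 2 to 6, and changed no call of the 5 red cell genes other than slc4a1. Within slide 1 alone limma called 6 probes (3450 at an unadjusted p under 0.05) and within slide 2 alone 0 (3308), with 0 pathway genes (10 and 7 unadjusted), 0 marker genes (1 and 3) and 0 of the 5 red cell genes; each slide held 4 arrays. The slide as a block left 1 of the 5 called (ca1). Scaling to the median left 1 of the 5 and 1 marker gene, and 43.8% of its probe calls were higher in DY7 against 64.1% with the 75th percentile, 54.3% with quantile normalization and 52.4% without control 2. Without scaling there were 719 probe calls, 4.73% of them higher, 2 pathway genes, 0 marker genes (8 unadjusted) and 1 of the 5, with epor at -0.062, slc4a1 at -0.059, fech at -0.042, slc25a37 at 0.26, slc4a4 at -0.048, piezo1 at -0.036, cxcr4 at -0.30 and sptb at -0.42. Normexp gave 15 probe calls, 0 pathway genes (5 unadjusted), 0 marker genes (4 unadjusted) and 0 of the 5, with epor at 0.25, slc25a37 at 0.10, fech at 0.13, ca1 at -0.71, cxcr4 at -0.044 and clpx at 0.015. With repaired backgrounds it gave 1351, 0 (22 unadjusted), 1 and 0, with epor at 0.25, ca1 at -0.49, gp1bb at 0.025 and ppox at 0.045. Without a filter on dim probes there were 562 probe calls, 1 pathway gene, 1 marker gene and 1 of the 5. With probes above background on all 8 arrays there were 3166, 58.6% of them higher, with 4 pathway genes and 1 of the 5, since ca1 and slc25a37 were not tested there. The deposited log2 values called 4 of the 5, where 4099 of all 20289 tested probes were called. Nothing is read from calls of the 5 under any setting, since the same contrast chose the genes. Leaving out 1 array gave 1091 to 3323 probe calls, 3 to 11 pathway genes, 1 to 3 marker genes and 1 to 3 of the 5; the low probe counts were 1147 without control 1, 1094 without control 4, 1091 without DY7 2 and 1191 without DY7 3, and 1 marker gene was left without control 3, control 4, DY7 2 or DY7 3. Other list genes that turned direction were gpx1 (0.024 within slide 1), cpa1 (0.055 within slide 2, and -0.32 to 0.009 with 1 array left out), cxcr4 (-0.042 to 0.36 with 1 array left out) and sptb (-0.001 within slide 2, -0.062 with scaling to the median, and -0.003 to 0.14 with 1 array left out). A floor on dim signals, chosen after seeing the data, and keeping outlier flags changed none of the calls of the 5; the floor ended those of pkm (0.43), bnip1 (0.66) and atp7b (0.68). The causes were not tested. Signals near background limit ca1 in DY7 and slc25a37 on control 2.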
